A study of Mus musculus with 12 samples.

Results

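Cytochrome P450 families 1 to 4 are the microsomal oxidases that mammals use mainly on drugs, plant compounds, steroids and fatty acids. Their 75 members here were taken by name, as every symbol of the table that reads Cyp, a family digit, a subfamily letter and a number, out of 36144 symbols in all. Symbols with a further letter or a pseudogene suffix are outside that rule. Primary mouse hepatocytes were profiled by sequencing of poly-A RNA, with 3 samples in each of 4 groups and 12 in all. All cells came from a wild-type C57/Bl6J mouse by collagenase digestion and spent 16 h in serum-free medium before lysis. FDMn cells had 6 µM manganese chloride in that overnight medium and then 10 µM forskolin with 1 µM dexamethasone for 5 h. FDI cells had 100 nM insulin for 1 h ahead of the same forskolin and dexamethasone. FD cells had forskolin and dexamethasone alone, and Mock cells are labelled as such with no agent named. Forskolin activates adenylyl cyclase, dexamethasone is a glucocorticoid, and together they put cultured hepatocytes in a state like fasting.

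P450 enzymes sit in the endoplasmic reticulum membrane, carry a heme and take electrons from the reductase Por, some also from cytochrome b5. Families 1 to 3 hold most drug-metabolising enzymes of the liver, and family 4 holds hydroxylases of fatty acids and eicosanoids. Their genes are classic targets of ligand-activated receptors: Ahr for Cyp1a, Nr1i3 (CAR) for Cyp2b, Nr1i2 (PXR) for Cyp3a and Ppara for Cyp4a, with Hnf4a keeping many of them on in hepatocytes. Cultured hepatocytes are known to lose much of their P450 expression within days of isolation.

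The values are TPM, transcript abundances scaled for transcript length and to the same total in every sample, so levels may be compared between genes. The deposited values keep no read depth, so no counting interval can be given, and a value of 0 says only that a gene is listed at 0. The labels do not say whether the 3 samples of a group were separate cultures, and they name 1 mouse, so the p-values below reflect only how far these samples differ from one another, which could be technical. All 8 hepatocyte markers listed had a mean of at least 1 TPM in every group, and Alb ranged over the 12 samples from 22527 to 32589 TPM. None of 4 lymphocyte markers reached that, and Nkg7 was at 0 in every sample. FD replicate 3 stood apart from the other FD samples in Alb (22624 TPM, against 32589 and 30581) and in Por, and the counts of called members below are also given without it. In bulk RNA, fewer cells that express a gene and less of its RNA per cell cannot be told apart.

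The promoters of 5 members to whose values the results below return are shown first: Cyp2b10 and Cyp2c70 for FD against Mock, and Cyp2a5, Cyp1a2 and Cyp3a13 for FDMn against FD. They are the 250 bases upstream of the RefSeq start on GRCm38.p6, written 5′ to 3′ on the gene's own strand. GENCODE M21 places the start further upstream in 4 of the 5, all but Cyp3a13. Cyp2b10 lies at chr7:25897408-25897657 on the forward strand, Cyp2c70 at chr19:40187287-40187536 on the reverse strand, Cyp2a5 at chr7:26835089-26835338 on the forward strand, Cyp1a2 at chr9:57683656-57683905 on the reverse strand and Cyp3a13 at chr5:137921620-137921869 on the reverse strand. Capitals mark any match, on either strand, to 6 short motifs.
Cyp2b10: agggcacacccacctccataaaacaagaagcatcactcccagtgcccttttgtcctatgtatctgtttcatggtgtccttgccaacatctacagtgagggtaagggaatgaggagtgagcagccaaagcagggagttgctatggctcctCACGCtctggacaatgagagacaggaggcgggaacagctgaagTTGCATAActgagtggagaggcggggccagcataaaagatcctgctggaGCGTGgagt
Cyp2c70: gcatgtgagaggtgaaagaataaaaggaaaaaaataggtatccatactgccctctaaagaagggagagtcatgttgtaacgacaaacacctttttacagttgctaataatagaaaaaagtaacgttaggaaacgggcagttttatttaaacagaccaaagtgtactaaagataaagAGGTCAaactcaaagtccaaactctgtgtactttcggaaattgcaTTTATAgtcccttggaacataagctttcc
Cyp2a5: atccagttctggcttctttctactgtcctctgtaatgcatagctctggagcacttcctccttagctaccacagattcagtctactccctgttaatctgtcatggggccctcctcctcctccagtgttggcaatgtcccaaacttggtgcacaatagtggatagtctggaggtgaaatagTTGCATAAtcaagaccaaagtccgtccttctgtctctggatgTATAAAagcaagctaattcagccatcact
Cyp1a2: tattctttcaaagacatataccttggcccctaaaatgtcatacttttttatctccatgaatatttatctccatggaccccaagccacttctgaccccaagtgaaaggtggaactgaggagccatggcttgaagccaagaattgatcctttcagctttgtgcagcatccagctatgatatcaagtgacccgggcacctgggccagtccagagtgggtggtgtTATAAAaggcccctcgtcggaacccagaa
Cyp3a13: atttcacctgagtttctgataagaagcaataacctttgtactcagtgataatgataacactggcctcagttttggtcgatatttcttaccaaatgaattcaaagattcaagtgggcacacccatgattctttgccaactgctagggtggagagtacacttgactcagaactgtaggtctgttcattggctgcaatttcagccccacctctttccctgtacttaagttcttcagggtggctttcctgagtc

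The motifs and the 5 promoters were chosen after the values were known, and Cyp1a2 was added after the matches had been seen. The motifs were the cAMP response element half-site (TGACG), the glucocorticoid response element half-site (AGAACA), the nuclear receptor half-site (AGGTCA), the xenobiotic response element core (GCGTG), a C/EBP-type motif (TTGCNNAA) and the TATA motif (TATAAA). The Cyp2b10 window held 2 xenobiotic response element cores, 101 and 9 bases before the start, and a C/EBP-type match. Cyp2c70 held a nuclear receptor half-site 74 bases before the start and a TATA motif on the opposite strand. Cyp2a5 held a C/EBP-type match 71 bases before the start and a TATA motif, Cyp1a2 held only the TATA motif, and Cyp3a13 held none of the 6. No 2 matches overlapped. Neither the cAMP response element half-site nor the glucocorticoid half-site occurred in any of the 5. Over the 33 members with a usable level and a RefSeq window, the TATA motif was found in 15, the glucocorticoid half-site in 10, the nuclear receptor half-site in 8, the C/EBP-type motif in 6, the xenobiotic core in 5 and the cAMP half-site in 1. Of all 32851 RefSeq windows of that length, 12.4% held the TATA motif, 16.1% the glucocorticoid half-site, 14% the nuclear receptor half-site, 9.56% the C/EBP-type motif, 28.2% the xenobiotic core and 17.8% the cAMP half-site. A member with several windows was counted if any of them matched, while these percentages are of windows, so the units are unlike. A match describes letters and is not a binding site, and a window without one says nothing of the factor.

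P450 expression in these cells was led by a few members. The 75 members summed to 2829 ± 130.2 TPM in FDMn, 2922 ± 74.7 in FDI, 3167 ± 97.4 in FD and 2679 ± 79.6 in Mock (SD, n = 3 each), or 0.259% to 0.327% of all transcripts. Every FD sample lay above every sample of the other 3 groups in that sum. Averaged over the 12 samples, 5 members held 50.0% of it. They were Cyp3a11, the main Cyp3a enzyme of mouse liver, at 566 TPM, the coumarin hydroxylase Cyp2a5 at 332, the ethanol- and paracetamol-oxidising Cyp2e1 at 253, Cyp2d10 at 152 and Cyp2f2, known for bioactivation of naphthalene, at 147. By subfamily, Cyp3a held 21.4% of the sum, Cyp2c 20.0%, Cyp2a 15.9%, Cyp2d 15.1%, Cyp2e 8.73% and Cyp2f 5.08%.

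Mean levels ran over several orders of magnitude. Over the 12 samples, 10 members averaged at least 100 TPM, 18 were between 10 and 100, 12 between 1 and 10, 26 were above 0 but under 1, and 9 were listed at 0 in every sample. The 9 at 0 were Cyp1b1, Cyp2b13, Cyp2c66, Cyp2j7, Cyp2j11, Cyp2j12, Cyp2t4, Cyp2w1 and Cyp4a29. A gene was tested where it reached 1 TPM in at least 3 of the 12 samples, which 40 members did. The 26 others fell short of that. Of these, Cyp1a1, Cyp2a22, Cyp2c55, Cyp2j9 and Cyp4a31 reached 1 TPM in 1 sample each, and Cyp2a4, Cyp2b9, Cyp2b19, Cyp2b23, Cyp2c65, Cyp2c69, Cyp2d11, Cyp2d12, Cyp2d34, Cyp2g1, Cyp2j8, Cyp2j13, Cyp2s1, Cyp3a16, Cyp3a44, Cyp3a57, Cyp4f18, Cyp4f37, Cyp4f39, Cyp4f40 and Cyp4x1 in none. The highest single value among the 26 was 1.34 TPM for Cyp1a1, the classic Ahr-induced enzyme, which was listed at 0 in 3 samples.

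**Figure D1:**
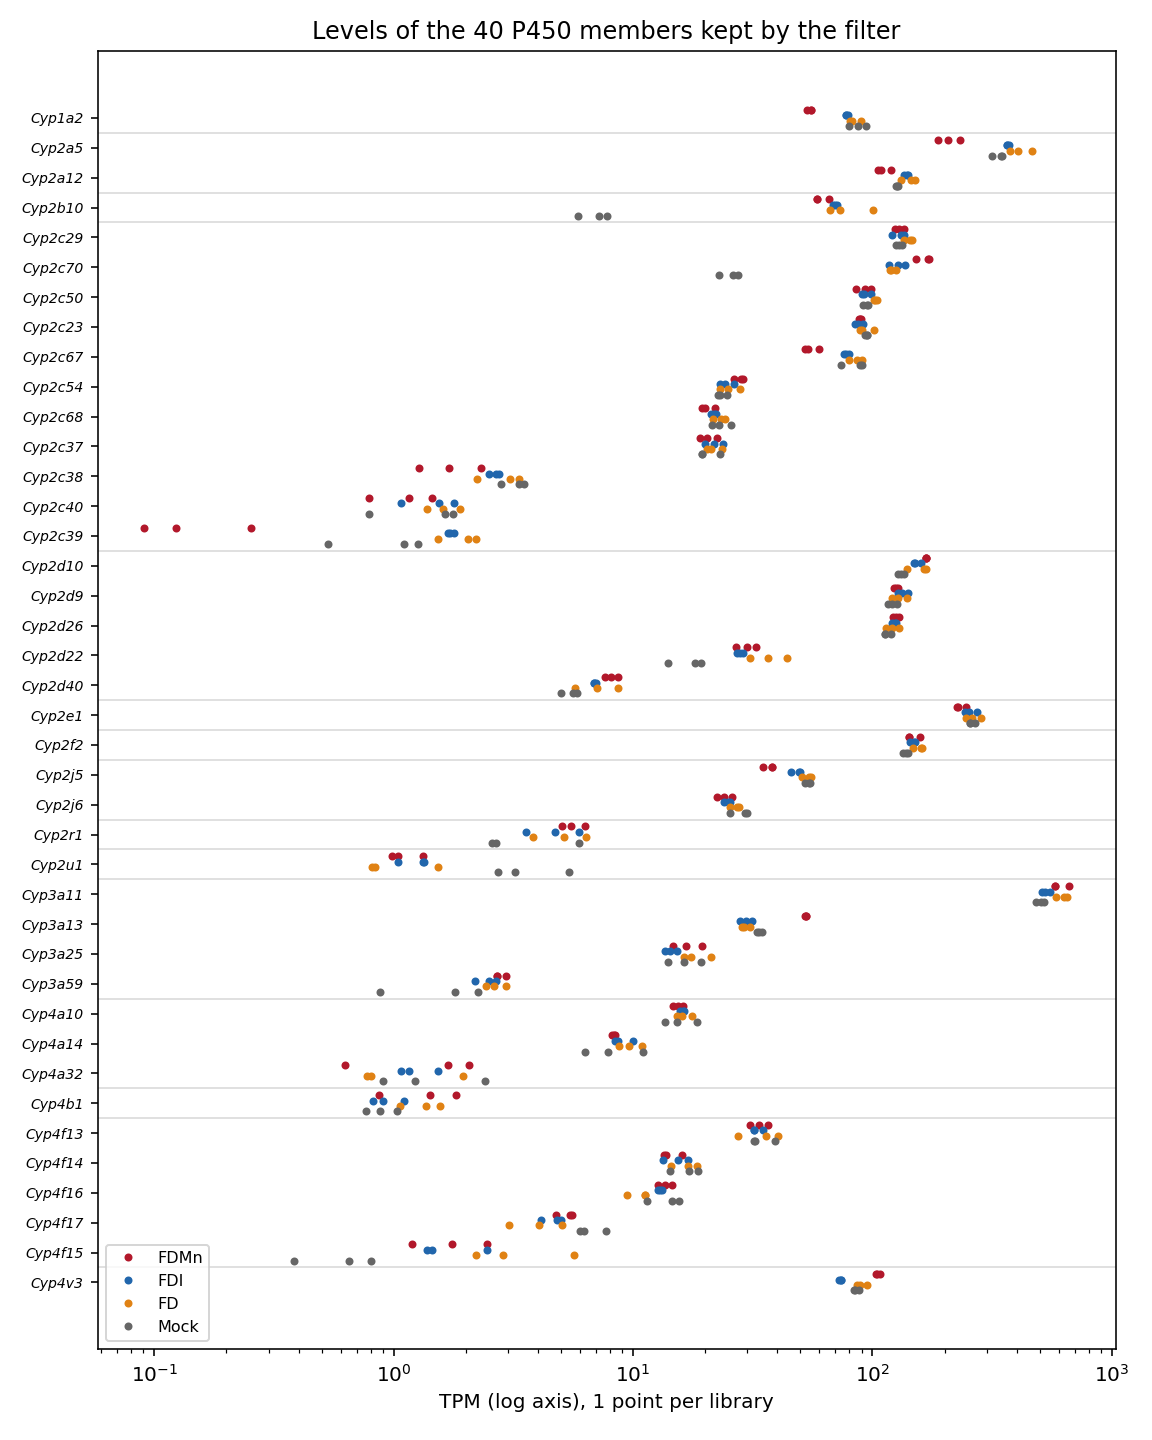
TPM of the 40 tested members on a log axis, 1 point per library, grouped by subfamily and coloured by group. The Mock points of Cyp2b10 and Cyp2c70 lie far to the left of the other 3 groups, the FDMn points of Cyp2c39 lie to the left of all others, and most members overlap across groups.

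Subfamilies differed in how many members carried their level. Cyp1a was 1 expressed gene: Cyp1a2, which oxidises caffeine and aromatic amines, had 55.5, 55.2 and 53.3 TPM in FDMn, 77.2, 77.4 and 79.4 in FDI, 89.8, 81.9 and 80.7 in FD and 79.6, 86.8 and 94.1 in Mock. Cyp2b was likewise almost all Cyp2b10, with Cyp2b9, Cyp2b19 and Cyp2b23 under 0.5 TPM in every sample. Cyp2a had Cyp2a5 and Cyp2a12, with Cyp2a4 at most 0.367 and Cyp2a22 at most 1.19 TPM. Cyp2c was spread over 11 tested members of 15, led by Cyp2c29 (132 TPM over the 12 samples), Cyp2c70 (109.7), Cyp2c50 (95.7) and Cyp2c23 (91.0).

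Cyp2d was carried by Cyp2d10, Cyp2d9 and Cyp2d26 at near-equal means of 152, 127 and 121 TPM. Cyp2j, a subfamily of arachidonic acid epoxygenases, had Cyp2j5 (48.1 TPM) and Cyp2j6 (25.9) and 6 members low or at 0. Cyp3a11 outweighed Cyp3a13 (36.4 TPM), Cyp3a25 (16.5) and Cyp3a59 (2.38), while Cyp3a16, Cyp3a44 and Cyp3a57 did not pass 0.228 TPM in any sample. In family 4, which oxidises the ends of fatty acid chains, the highest was Cyp4v3 (88.6 TPM), ahead of Cyp4f13 (33.9) and the Ppara targets Cyp4a10 (15.9) and Cyp4a14 (8.87). Cyp4b1, of which rodent lung has much, was 0.865 to 1.82 TPM in FDMn, 0.817 to 1.11 in FDI, 1.06 to 1.56 in FD and 0.769 to 1.03 in Mock. The vitamin D hydroxylase Cyp2r1 had 5.51, 5.04 and 6.32 TPM in FDMn, 4.71, 3.55 and 5.93 in FDI, 3.80, 6.37 and 5.14 in FD and 2.67, 2.56 and 5.97 in Mock, with overlapping groups.

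Many members are recent duplicates, so reads can be assigned to the wrong copy. Of the distinct runs of 31 bases in a member's GENCODE M21 transcripts, 72.6% of those of Cyp2c40, 67.6% of Cyp2c67, 62.0% of Cyp2c68, 54.6% of Cyp2a5 (nearest Cyp2a4), 50.2% of Cyp2d10 (nearest Cyp2d11), 34.5% of Cyp2a12 (nearest Cyp2a22) and 26.9% of Cyp2c39 (nearest Cyp2c38) also occur in another gene. The share was 19.4% for Cyp2b10, 15.8% for Cyp3a11, 7.67% for Cyp1a2, 6.93% for Cyp2d22, 3.46% for Cyp2j5 and 7.49% for Cyp4v3. It was 0.308% for Cyp3a13, and Cyp2c70 shares no such run with another annotated gene. Members with a large share are uncertain as single genes, and sums over copies are given below for Cyp2a5, Cyp2c39 and Cyp2c67.

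Forskolin and dexamethasone raised a minority of the family, Cyp2b10 and Cyp2c70 most on the scale of log2(TPM + 1). At a limma adjusted p under 0.05, FD cells had 11 of the 40 tested members (27.5%) higher and 4 (10%) lower. Of all 11544 tested genes, 11.2% were higher than in Mock cells and 29.9% lower. The members' median log2 change was 0.10, and that of all tested genes was -0.15. With median-of-ratios scaling, which moves the all-gene median to 0.00, the split was 19 higher and 2 lower members, and 2059 higher and 1972 lower of all genes. The 8 members added as higher were Cyp2c29, Cyp2c50, Cyp2c54, Cyp2d9, Cyp2d26, Cyp2d40, Cyp2e1 and Cyp4v3 (adjusted p = 0.000943 to 0.0408). With quantile normalization it was 15 higher and 2 lower members, and 1782 higher and 2178 lower of all genes, and Cyp2c50, Cyp2c54, Cyp2d40 and Cyp4v3 were the 4 members added. On TPM as deposited, leaving out FD replicate 3 gave 7 higher and 4 lower members. Leaving out Mock replicate 2 gave 7 higher, and leaving out Mock replicate 1 or FD replicate 1 gave 2 lower. The FD libraries also serve in the comparisons with manganese and insulin.

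Cyp2b10, the phenobarbital-inducible member of Cyp2b (chr7:25897620-25926624, forward strand, GRCm38), had 101, 66.5 and 73.5 TPM in FD, against 7.82, 5.87 and 7.23 TPM in Mock. The lowest FD sample was far above the highest Mock sample, and FD replicate 1 was the highest of its group. Mean levels were 80.2 ± 18.0 TPM in FD and 6.97 ± 1.00 TPM in Mock (SD, n = 3 each), a 11.5-fold difference and a log2 change of 3.33 ± 0.13 (SE, limma adjusted p = 1.93e-09). Because Cyp2b10 supplies nearly all of Cyp2b, the subfamily sum followed it, at 80.7 ± 17.9 TPM in FD and 7.23 ± 1.12 TPM in Mock.

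Cyp2c70, the mouse enzyme that makes muricholic bile acids (chr19:40153353-40187333, reverse strand), had 120.0, 119 and 125 TPM in FD, against 27.5, 26.0 and 22.8 TPM in Mock. All FD samples were again well clear of all Mock samples. The means differed 4.76-fold, with a log2 change of 2.21 ± 0.081 (SE, limma adjusted p = 8.49e-10). The 9 tested Cyp2c members other than Cyp2c70 and Cyp2c39 summed to 498 ± 19.0 TPM in FD and 474 ± 17.2 in Mock, and none of them passed the test. Cyp2c39, a retinoic acid hydroxylase, was at the low end with 1.54, 2.20 and 2.04 TPM in FD, against 1.26, 0.530 and 1.10 TPM in Mock. Its limma adjusted p was 0.0184 (0.0515 to 0.0725 without FD replicate 3, FD replicate 2 or Mock replicate 2, which ended the call), but together with Cyp2c38 it summed to 4.80 ± 0.507 TPM in FD and 4.18 ± 0.503 TPM in Mock, values that overlapped.

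Cyp2d22 had 30.8, 43.9 and 36.5 TPM in FD, against 14, 19.2 and 18.2 TPM in Mock. It rose 2.16-fold in the means without overlap (limma adjusted p = 5.07e-05). Of the abundant members, Cyp3a11 had 649, 585 and 632 TPM in FD, against 508, 483 and 522 TPM in Mock, and Cyp2a5 had 407, 465 and 376 TPM in FD, against 344, 315 and 346 TPM in Mock. Both groups of samples were separate in each, yet the log2 changes were modest, 0.30 ± 0.064 for Cyp3a11 (SE, limma adjusted p = 0.00259) and 0.31 ± 0.085 for Cyp2a5 (SE, limma adjusted p = 0.0120, and 0.0501 without Mock replicate 2). Cyp2d10 rose to 157 ± 15.4 TPM in FD, against 132 ± 3.76 TPM in Mock, and the smaller rises of Cyp2f2, Cyp2a12 and Cyp3a59 had adjusted p-values of 0.0250, 0.0485 and 0.0393. The call of Cyp2f2 was lost without Mock replicate 1 or 2 or FD replicate 1 or 3 (adjusted p = 0.0550 to 0.0824). That of Cyp2a12 was lost on leaving out any library but FD replicate 2 or FDMn replicate 2 (0.0546 to 0.144), and that of Cyp3a59 on leaving out any but Mock replicate 2, Mock replicate 3 or FDI replicate 2 (0.0501 to 0.140).

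The other large changes were at low levels or in family 4. Cyp4f15 had 5.67, 2.85 and 2.21 TPM in FD, against 0.384, 0.648 and 0.80 TPM in Mock (limma adjusted p = 0.00109). FD replicate 1 was about as high as the other FD samples together, but even the lowest FD sample exceeded every Mock sample. Cyp2u1, a hydroxylase of long-chain fatty acids, fell to 0.838, 0.811 and 1.53 TPM in FD, against 5.38, 2.72 and 3.19 TPM in Mock, a log2 change of -1.19 ± 0.21 (SE, limma adjusted p = 0.000678). Cyp4f17 fell to 4.04 ± 1.01 TPM in FD, against 6.65 ± 0.936 TPM in Mock (limma adjusted p = 0.00630). The falls of Cyp4f16 (log2 change -0.35) and Cyp3a13 (-0.19) did not pass the test under median-of-ratios or quantile scaling. Neither did Cyp4f16 without Mock replicate 1 or 2 or FD replicate 1 (adjusted p = 0.0820 to 0.105), or Cyp3a13 without Mock replicate 1 or 3 or FD replicate 1 or 2 (0.0625 to 0.0899).

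Several well-known inducible members did not pass the test. Cyp1a2 averaged 84.2 ± 4.94 TPM in FD and 86.8 ± 7.26 TPM in Mock, with an interval of the log2 change of -0.19 to 0.10 (95%). Cyp4a10 averaged 16.3 ± 1.22 TPM in FD and 15.8 ± 2.51 TPM in Mock, with an interval of -0.18 to 0.27, and Cyp4a14 had an interval of -0.11 to 0.56 and passed the test without Mock replicate 1 (adjusted p = 0.0220). Cyp2e1 averaged 263 ± 19.0 TPM in FD and 259.5 ± 7.76 TPM in Mock, with an interval of -0.12 to 0.16, but with median-of-ratios scaling its log2 change was 0.18 and passed the test (adjusted p = 0.0408). All 4 intervals, on TPM as deposited with 1 added, end below a log2 change of 1.

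**Figure D2:**
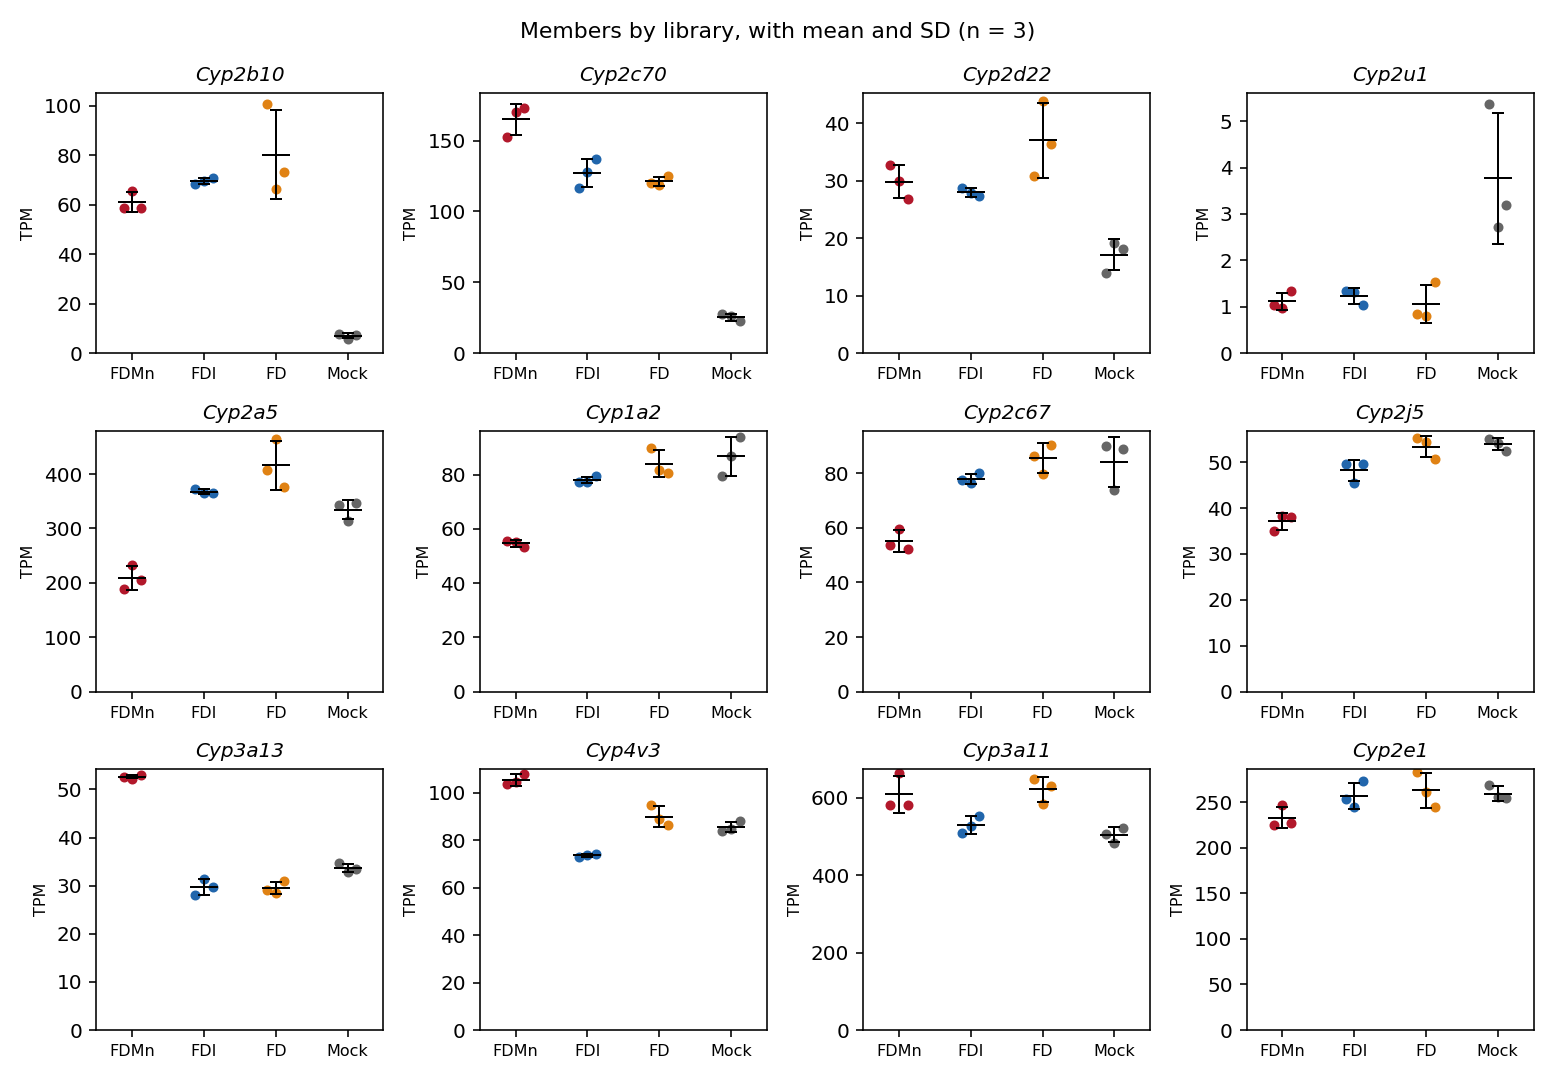
TPM of 12 members by library in FDMn, FDI, FD and Mock, with the mean and SD of 3 libraries as a long and 2 short bars. Cyp2b10, Cyp2c70 and Cyp2d22 are low in Mock alone, Cyp2a5, Cyp1a2, Cyp2c67 and Cyp2j5 are lowest in FDMn, Cyp3a13 and Cyp4v3 are highest in FDMn, and Cyp4v3 is lowest in FDI.

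Summed by subfamily, FD samples were above Mock samples without overlap in Cyp2a (527 to 597 TPM in FD, 442 to 474 in Mock), Cyp2c (599 to 636 in FD, 482 to 516 in Mock), Cyp2d (424 to 469.9 in FD, 381 to 398 in Mock) and Cyp3a (633 to 702 in FD, 532 to 574 in Mock). Cyp1a, Cyp4a and Cyp4f overlapped. Leaving out Cyp2b10 and Cyp2c70, the remaining 73 members summed to 2966 ± 79.5 TPM in FD and 2646 ± 79.0 TPM in Mock. Markers of hepatocytes, of hepatocyte zone, of endothelial cells and of bile duct cells moved with this comparison as well. Of the 8 general hepatocyte markers, 5 were higher in FD by limma and none lower. The 10 endothelial markers summed to 20.4 to 30.0 TPM in FD and 18.1 to 18.6 TPM in Mock. Of 5 tested, 2 were higher and 1 lower by limma. The 8 stellate cell or fibroblast markers summed to 4.75 to 5.71 TPM in FD and 3.62 to 5.30 TPM in Mock. Of all tested genes, 11.2% were higher and 29.9% lower. The summed level of 8 periportal hepatocyte markers was 1625 to 1869.8 TPM in FD and 631 to 691 TPM in Mock. Most of that rise was in Ass1 (853 ± 73.9 TPM in FD, 192 ± 9.08 TPM in Mock) and Pck1 (337 ± 37.1 TPM in FD, 0.343 ± 0.171 TPM in Mock). Hsd17b13, Ctsc and Aldh1b1 averaged 424, 45.2 and 2.43 TPM in FD and 404, 49.6 and 2.91 TPM in Mock. The 9 pericentral markers summed to 101 to 111 TPM in FD and 65.9 to 80.3 TPM in Mock, so both zones' sums were higher in FD without overlap. By limma, 5 of 8 tested periportal and 2 of 7 tested pericentral markers were higher and none lower. The 7 cholangiocyte markers summed to 732 to 803 TPM in FD and 1082 to 1126 TPM in Mock. Of these, Spp1 averaged 681 ± 33.9 TPM in FD and 889 ± 37.1 TPM in Mock, and Cldn4 61.3 ± 6.00 TPM in FD and 176 ± 17.7 TPM in Mock. Their part in the P450 changes was not tested.

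**Figure D3:**
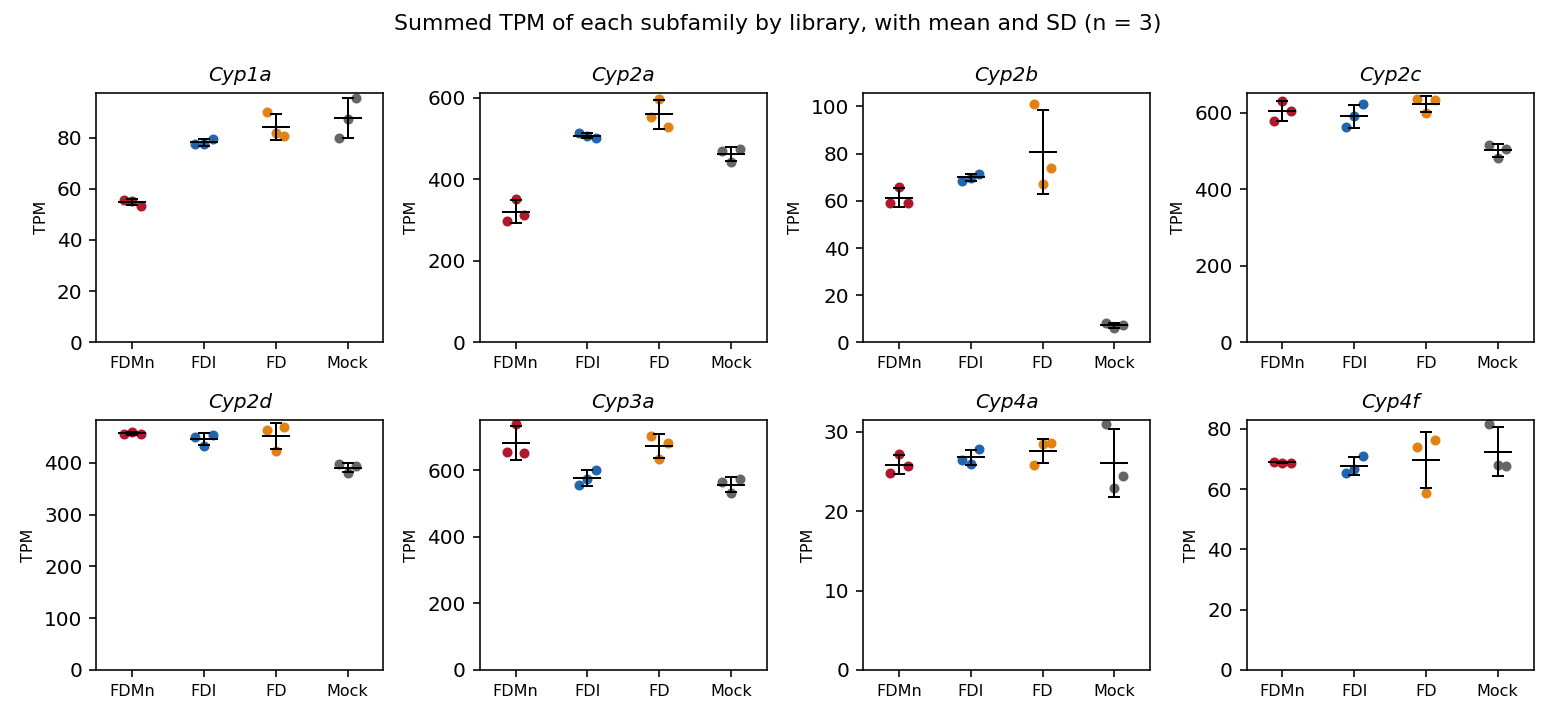
Summed TPM of 8 subfamilies by library in FDMn, FDI, FD and Mock, with mean and SD (n = 3). The Cyp2b sum is near 7 TPM in Mock and 59 TPM or more elsewhere, the Cyp1a and Cyp2a sums are lowest in FDMn, and the Cyp4a and Cyp4f sums overlap in all groups.

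With manganese, more members were lower than higher, and the share that was higher was near that of all genes. Against FD, 3 of the 40 tested members (7.5%) were higher and 6 (15%) lower in FDMn. Of all tested genes, 7.22% were higher than in FD and 7.9% lower. The median log2 change was -0.08 over the members and 0.00 over all genes. Without FD replicate 3 the counts were 3 higher and 9 lower, with Cyp2c38, Cyp2e1 and Cyp4f15 added (adjusted p = 0.0281, 0.0357 and 0.0499). The lowered members were Cyp2a5, Cyp1a2, Cyp2j5, Cyp2c39, Cyp2c67 and Cyp2a12, and the raised ones Cyp3a13, Cyp2c70 and Cyp4v3.

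Cyp2a5 (chr7:26835305-26843548, forward strand) had the largest loss in TPM, with 189, 232 and 206 TPM in FDMn, against 407, 465 and 376 TPM in FD. Every FDMn sample was below every FD sample, and also below the Mock samples (315 to 346 TPM). The mean in FDMn was 0.502 of that in FD, a log2 change of -0.99 ± 0.085 (SE, limma adjusted p = 1.98e-05). Its near-copy Cyp2a4 adds almost nothing, since both together summed to 209 ± 21.8 TPM in FDMn and 416 ± 45.3 TPM in FD. The related Cyp2a12, a steroid and bile acid hydroxylase, fell to 111 ± 7.18 TPM in FDMn, against 142 ± 9.67 TPM in FD (log2 change -0.35 ± 0.062, limma adjusted p = 0.00248).

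Cyp1a2 (chr9:57676937-57683703, reverse strand) fell to 55.5, 55.2 and 53.3 TPM in FDMn, against 89.8, 81.9 and 80.7 TPM in FD. The FDMn samples lay within about 2 TPM of one another and far below FD, for a log2 change of -0.61 ± 0.067 (SE, limma adjusted p = 0.000117). Cyp2j5, an arachidonic acid epoxygenase of mouse liver and kidney, fell to 35.0, 38.2 and 38.1 TPM in FDMn, against 55.2, 54.3 and 50.7 TPM in FD (log2 change -0.51 ± 0.063, limma adjusted p = 0.000274), and its paralogue Cyp2j6 did not pass the test, at 24.1 ± 1.67 TPM in FDMn and 26.7 ± 1.19 TPM in FD.

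Within Cyp2c the directions split. Cyp2c67 fell to 53.7, 59.6 and 52.2 TPM in FDMn, against 86.4, 79.7 and 90.5 TPM in FD (log2 change -0.62 ± 0.084, limma adjusted p = 0.000459). As it shares most of its sequence runs with Cyp2c40, Cyp2c68 and Cyp2c69, the sum of the 4 is the safer figure, 77.0 ± 5.39 TPM in FDMn and 111 ± 7.34 TPM in FD. Cyp2c39 almost vanished, at 0.123, 0.0904 and 0.254 TPM in FDMn, against 1.54, 2.20 and 2.04 TPM in FD. Its log2 change of -1.34 ± 0.18 (limma adjusted p = 0.000428) understates the ratio, since 1 is added to each TPM value. Cyp2c38, with which it shares sequence, did not pass the test (limma adjusted p = 0.0622), and both together summed to 1.92 ± 0.605 TPM in FDMn and 4.80 ± 0.507 TPM in FD.

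Cyp2c70 moved the other way, with 153, 170.1 and 173 TPM in FDMn, against 120.0, 119 and 125 TPM in FD. The groups did not overlap, and the log2 change was 0.44 ± 0.081 (SE, limma adjusted p = 0.00333). Cyp3a13 (chr5:137892932-137921619, reverse strand) had the smallest p of the family, with 52.6, 52.3 and 52.9 TPM in FDMn, against 29.0, 28.4 and 30.9 TPM in FD. Both groups were tight, and the mean rose 1.79-fold (log2 change 0.82 ± 0.062, limma adjusted p = 9.73e-06). The most abundant member, Cyp3a11, had overlapping values of 581, 664 and 581 TPM in FDMn and 649, 585 and 632 TPM in FD, with a 95% interval of the log2 change of -0.17 to 0.11. Cyp4v3 rose to 104, 104 and 108 TPM in FDMn, against 94.8, 88.8 and 86.2 TPM in FD (log2 change 0.23 ± 0.052, limma adjusted p = 0.0126), a call that was lost without FDMn replicate 3 (adjusted p = 0.0539).

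Cyp2b10, raised like Cyp2c70 by forskolin and dexamethasone, averaged 61.0 ± 3.99 TPM in FDMn and 80.2 ± 18.0 TPM in FD, with no overlap, and did not pass the test (log2 change -0.37 ± 0.13, limma adjusted p = 0.0871). Without FD replicate 2 it did (adjusted p = 0.0357). Cyp2e1, Cyp2f2, all 5 tested Cyp2d members, all 3 tested Cyp4a members and all 5 tested Cyp4f members also missed the threshold. Lists of macrophage, cholangiocyte and hepatocyte zone markers moved with manganese. The 10 macrophage markers summed to 763 to 849 TPM in FDMn and 318 to 384 TPM in FD, with 4 of the 10 at a mean of at least 1 TPM and almost all of the sum in Cd68 (794 ± 43.4 TPM in FDMn, 349 ± 32.4 TPM in FD). Clec4f and Adgre1, which define these cells, stayed under 1 TPM in every sample. The 7 cholangiocyte markers summed to 1412 to 1606 TPM in FDMn and 732 to 803 TPM in FD, with 3 of the 7 at a mean of at least 1 TPM and most of it Spp1 (1418 ± 97.7 TPM in FDMn, 681 ± 33.9 TPM in FD), while Krt7 and Epcam stayed under 1 TPM in every sample. Of the 9 pericentral hepatocyte markers, 6 had such a mean, and the list summed to 64.7 to 74.9 TPM in FDMn and 101 to 111 TPM in FD, led by Glul at 14.8 ± 2.03 TPM in FDMn and 42.8 ± 5.14 TPM in FD. The 8 periportal markers, all at such a mean, summed to 1161 to 1220.2 TPM in FDMn and 1625 to 1869.8 TPM in FD. Ass1, Hsd17b13 and Pck1 averaged 647, 242 and 185 TPM in FDMn and 853, 424 and 337 TPM in FD. Ctsc, Hal and Aldh1b1 averaged 50.0, 4.02 and 2.75 TPM in FDMn and 45.2, 3.81 and 2.43 TPM in FD. By limma, 4 of 8 tested periportal and 2 of 7 tested pericentral markers were lower in FDMn, and none was higher. Of the 8 general hepatocyte markers, 1 was higher and 3 were lower. Beside these stand 7.22% higher and 7.9% lower of all tested genes. The part of these lists in the P450 changes was not tested.

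Insulin changed few members. Of the 40 tested, none was higher and 2 (5%) were lower in FDI than in FD, while 10.2% of all tested genes were higher and 4.35% lower by limma. At an unadjusted p under 0.05, 1 member was higher, Cyp4f16, and 7 were lower. Of all 11544 tested genes, 2168 were higher and 1148 lower at that unadjusted threshold. Without FD replicate 3 the adjusted counts were 0 higher and 2 lower, with Cyp3a11 lost and Cyp4f15 added (adjusted p = 0.0447). Cyp4v3 fell to 72.8, 73.8 and 74.0 TPM in FDI, against 94.8, 88.8 and 86.2 TPM in FD. The FDI samples were close together and below every FD sample (log2 change -0.29 ± 0.052, limma adjusted p = 0.00336). Cyp3a11 fell to 509.7, 526 and 554 TPM in FDI, against 649, 585 and 632 TPM in FD, also without overlap (log2 change -0.23 ± 0.064, limma adjusted p = 0.0322). That second call was lost on leaving out FD replicate 1, FD replicate 3, FDI replicate 1 or FDI replicate 2 (adjusted p = 0.0560 to 0.108).

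Neither Cyp2b10 nor Cyp2c70 passed the test with insulin. Cyp2b10 had 68.4, 69.5 and 71.0 TPM in FDI, against 101, 66.5 and 73.5 TPM in FD, with a 95% interval of the log2 change of -0.47 to 0.11. Cyp2c70 had 117, 128 and 137 TPM in FDI, against 120.0, 119 and 125 TPM in FD, with an interval of -0.11 to 0.24. Both sets of values overlapped. Cyp2d22 averaged 28.0 ± 0.766 TPM in FDI and 37.0 ± 6.56 TPM in FD and missed the threshold (limma adjusted p = 0.0810), which it passed without FD replicate 1 (0.0364) and with quantile normalization (0.0480). For Cyp1a2 and Cyp2a5, which fell with manganese, the intervals with insulin were -0.25 to 0.04 and -0.36 to 0.01. Marker lists moved with insulin too. The periportal list summed to 1372 to 1423 TPM in FDI and 1625 to 1869.8 TPM in FD. By limma, 2 of 8 tested periportal markers were lower and none higher. The pericentral list summed to 82.5 to 90.7 TPM in FDI and 101 to 111 TPM in FD. Its fall was that of Glul, at 19.2 ± 0.734 TPM in FDI and 42.8 ± 5.14 TPM in FD. Oat, Gulo and Lect2 averaged 30.7, 18.7 and 12.7 TPM in FDI and 28.5, 17.8 and 11.1 TPM in FD. Slc1a2 and Rhbg averaged 1.44 and 1.90 TPM in FDI and 1.79 and 2.00 TPM in FD. Of 7 tested pericentral markers, 1 was lower by limma and none higher. Of the 8 hepatocyte markers, 3 were lower in FDI by limma and none higher. Of 3 tested cholangiocyte markers, Sox9 (40.6 ± 6.20 TPM in FDI, 17.0 ± 1.64 TPM in FD) and Cldn4 (105 ± 11.1 TPM in FDI, 61.3 ± 6.00 TPM in FD) were higher, while the list's sum was 762 to 809 TPM in FDI and 732 to 803 TPM in FD. Their part in the P450 values was not tested.

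By subfamily sum, 8 of the larger groups of genes can be set side by side over all 4 groups of samples. Cyp2a summed to 320.2 ± 28.2 TPM in FDMn, 507 ± 5.90 in FDI, 559 ± 35.4 in FD and 462 ± 17.6 in Mock, the lowest being FDMn without overlap. Cyp2j was ordered likewise at the low end, with 61.6 ± 2.65 TPM in FDMn, 73.5 ± 2.02 in FDI, 80.7 ± 1.57 in FD and 83.0 ± 2.72 in Mock. Cyp3a summed to 681 ± 50.1 TPM in FDMn, 576 ± 23.9 in FDI, 672 ± 35.2 in FD and 556 ± 21.7 in Mock, and the FDMn and FD values overlapped. Cyp2c summed to 604 ± 25.6 TPM in FDMn, 591 ± 30.0 in FDI, 623 ± 21.0 in FD and 501 ± 17.4 in Mock, so that the falls of Cyp2c67 and Cyp2c39 and the rise of Cyp2c70 in FDMn left a sum that overlapped that of FD. Cyp2d summed to 457 ± 2.28 TPM in FDMn, 446 ± 11.4 in FDI, 452 ± 25.1 in FD and 391 ± 8.43 in Mock, and only the Mock samples lay clear of the FD samples. Cyp2e1, alone in its subfamily, averaged 233 ± 11.7 TPM in FDMn, 257 ± 14.5 in FDI, 263 ± 19.0 in FD and 259.5 ± 7.76 in Mock. Cyp4a summed to 25.9 ± 1.24 TPM in FDMn, 26.8 ± 0.992 in FDI, 27.6 ± 1.51 in FD and 26.1 ± 4.30 in Mock, and Cyp4f to 68.8 ± 0.171, 67.7 ± 3.01, 69.6 ± 9.41 and 72.4 ± 8.01 TPM in the same order of groups, with all of them overlapping. Among other tested members, Cyp2c54 (25.3 TPM over the 12 samples), Cyp2c37 (21.2), the leukotriene hydroxylase Cyp4f14 (15.7), Cyp2d40 (6.92) and Cyp4a32 (1.35) passed the test in none of the 4 comparisons on TPM as deposited. With both other scalings, Cyp2c54 (adjusted p = 0.0204 and 0.0293) and Cyp2d40 (0.0109 and 0.00762) were higher in FD than in Mock, and so was Cyp2d40 without FD replicate 2 (0.00820).

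Set directly against insulin, manganese gave 3 higher (7.5%) and 6 lower (15%) members in FDMn than in FDI, against 5.68% higher and 11.9% lower of all tested genes. This comparison uses the same FDMn libraries as the one with FD. Cyp3a13 had 52.6, 52.3 and 52.9 TPM in FDMn, against 28.1, 31.3 and 29.8 TPM in FDI (log2 change 0.80 ± 0.062, limma adjusted p = 7.21e-06). Cyp4v3, which lay on opposite sides of FD in the 2 treatments, was 105 ± 2.34 TPM in FDMn and 73.5 ± 0.671 TPM in FDI (log2 change 0.51 ± 0.052, limma adjusted p = 5.27e-05). Cyp2c70 was the third higher member, at 165 ± 11 TPM in FDMn and 127 ± 10.1 TPM in FDI (limma adjusted p = 0.00771).

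The 6 lower members were Cyp2a5 (log2 change -0.82 ± 0.085, SE), Cyp2c39 (-1.24 ± 0.18), Cyp1a2 (-0.50 ± 0.067), Cyp2c67 (-0.49 ± 0.084), Cyp2j5 (-0.37 ± 0.063) and Cyp2a12 (-0.32 ± 0.062). Their limma adjusted p-values ran up to 0.00436, and each was lower in all 3 FDMn samples than in any FDI sample. Cyp3a11 averaged 609 ± 48.0 TPM in FDMn and 529.8 ± 22.3 TPM in FDI and lay just outside the threshold (limma adjusted p = 0.0517), which it passed under both other scalings (0.0173 and 0.00266). In the same libraries the macrophage list summed to 763 to 849 TPM in FDMn and 306 to 382 TPM in FDI. Almost all of that was Cd68 (794 ± 43.4 TPM in FDMn, 333 ± 39.7 TPM in FDI). The cholangiocyte list summed to 1412 to 1606 TPM in FDMn and 762 to 809 TPM in FDI. Of its 3 tested markers, Spp1 was higher by limma (1418 ± 97.7 TPM in FDMn, 632 ± 19.4 TPM in FDI). Sox9 (25.2 ± 1.16 TPM in FDMn, 40.6 ± 6.20 TPM in FDI) and Cldn4 (51.7 ± 3.56 TPM in FDMn, 105 ± 11.1 TPM in FDI) were lower. The pericentral list summed to 64.7 to 74.9 TPM in FDMn and 82.5 to 90.7 TPM in FDI. The periportal list summed to 1161 to 1220.2 TPM in FDMn and 1372 to 1423 TPM in FDI. By limma, 1 of 7 tested pericentral markers was lower in FDMn and none higher. Of 8 tested periportal markers, 1 was higher and 3 were lower. Of the 8 general hepatocyte markers, 4 were higher and none lower. Beside these stand 5.68% higher and 11.9% lower of all tested genes. The part of these lists in the P450 values was not tested.

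**Figure D4:**
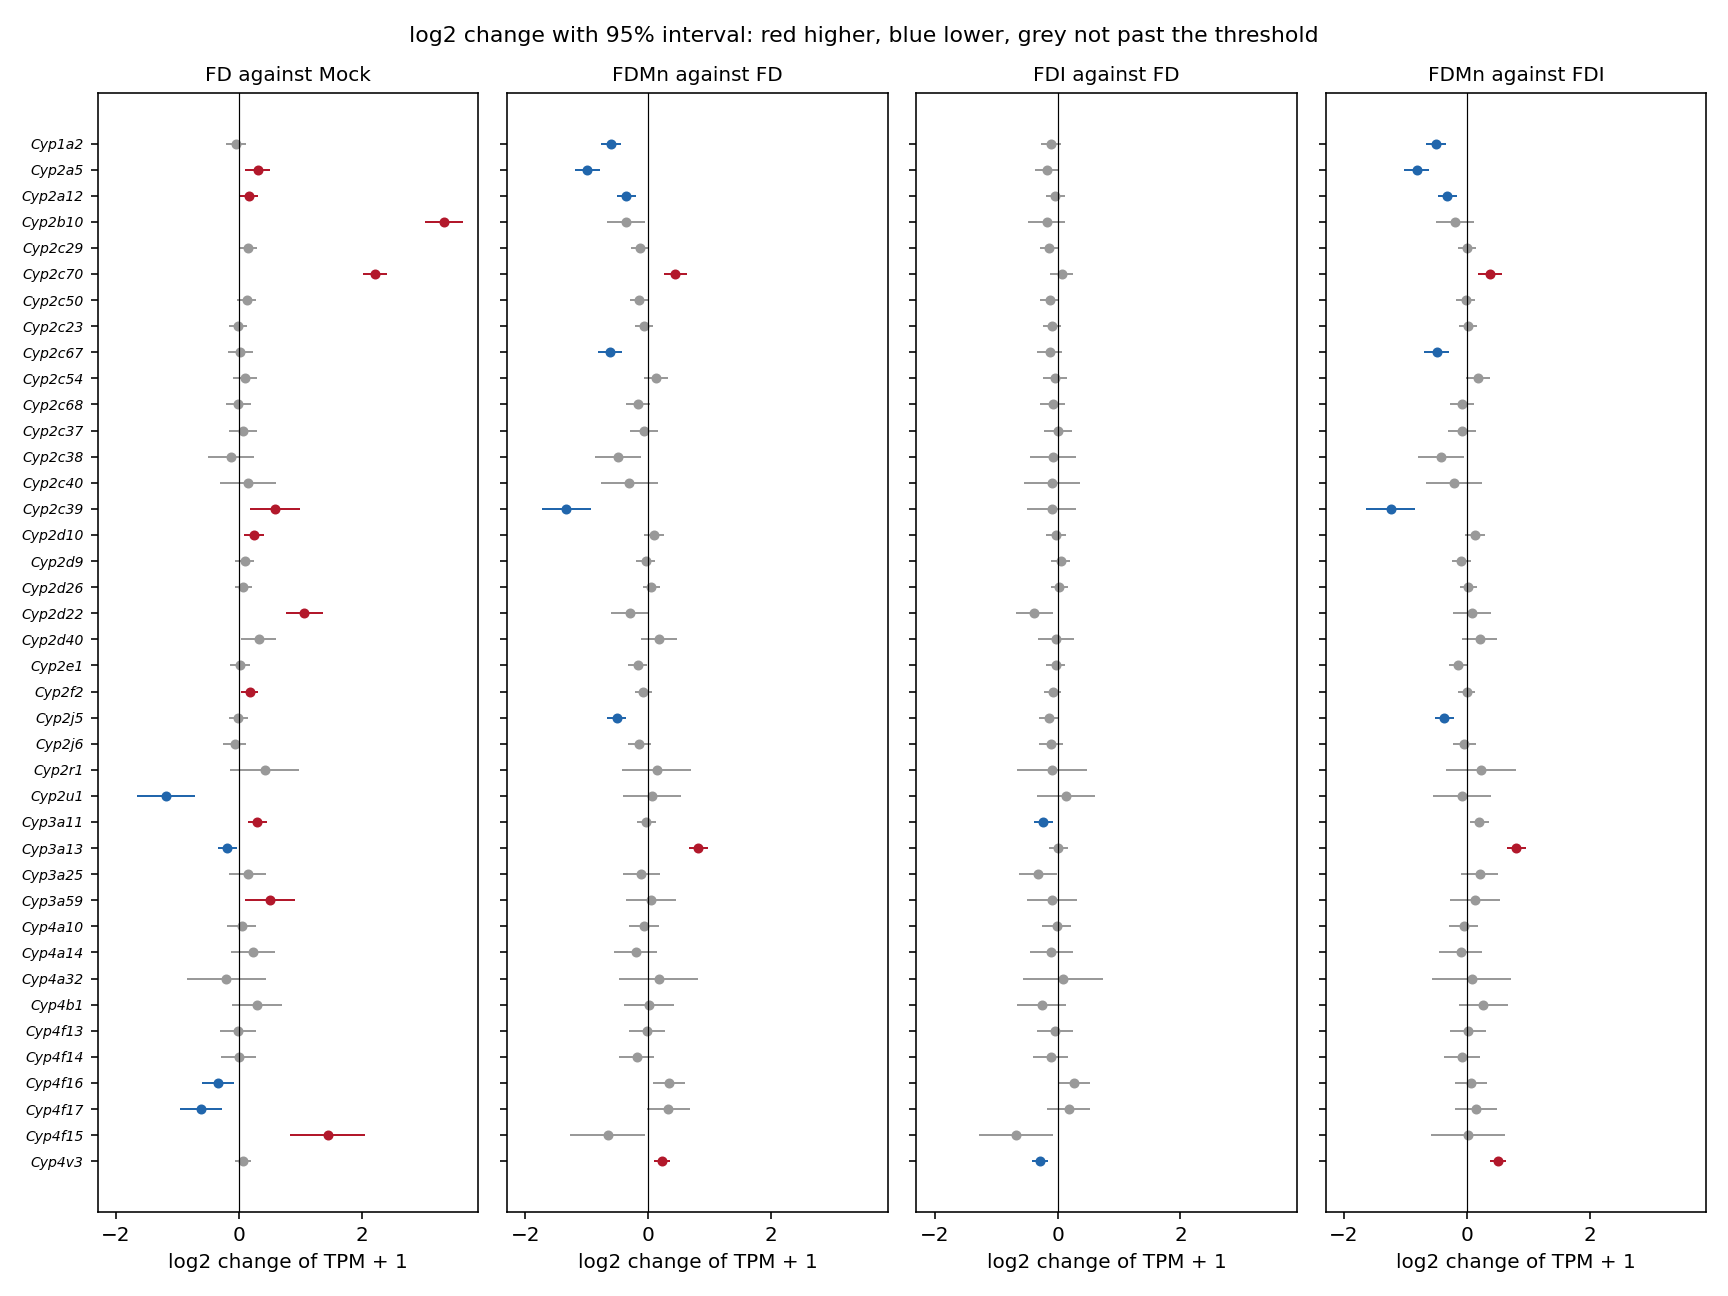
log2 change of TPM + 1 with its 95% interval for the 40 tested members in 4 comparisons, FD against Mock, FDMn against FD, FDI against FD and FDMn against FDI. Red points are higher, blue points lower and grey points not past an adjusted p of 0.05: Cyp2b10 at 3.33 and Cyp2c70 at 2.21 stand out in FD against Mock, and the panel of FDI against FD has 2 coloured points.

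In the genome, members that passed the test lay next to members that did not. The 75 genes lie on 9 chromosomes, with 15 each on chromosomes 4, 7 and 19. On chromosome 7, Cyp2b10 and Cyp2a5 are 0.909 Mb apart, with FD against Mock log2 changes of 3.33 and 0.31 and FDMn against FD changes of -0.37, which did not pass the test, and -0.99. On chromosome 19, Cyp2c70 lies 0.0394 Mb from Cyp2c50, whose log2 changes were 0.12 in FD against Mock and -0.15 in FDMn against FD. Neither passed the test on TPM as deposited, and the first did with median-of-ratios scaling (adjusted p = 0.00238) and quantile normalization (0.0202). Cyp2c39 and Cyp2c67, both lower in FDMn, are 0.0403 Mb apart in the same cluster. Cyp3a13, the raised Cyp3a member in FDMn, lies 7.42 Mb from Cyp3a57, the nearest other Cyp3a member, on chromosome 5.

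A list of 5 genes held those for electron transfer to P450 enzymes and the P450-associated Pgrmc1. Of these, FD cells had 2 higher and 2 lower than Mock cells, beside 11.2% higher and 29.9% lower of all tested genes. Por, the reductase, had 648, 662 and 438 TPM in FD, against 228, 257 and 257 TPM in Mock (log2 change 1.21 ± 0.14, limma adjusted p = 2.60e-05). FD replicate 3 was the lowest FD sample and still above all Mock samples. Cyb5a, microsomal cytochrome b5, had 882 ± 49.4 TPM in FD and 503 ± 16.9 TPM in Mock, and likewise rose (limma adjusted p = 2.47e-07). Cyb5b, the outer mitochondrial cytochrome b5, and the b5 reductase Cyb5r3 fell, with log2 changes of -0.52 and -0.21 (limma adjusted p = 4.22e-05 and 0.00449). Both falls are on TPM as deposited, where the median log2 change of all tested genes was -0.15. Pgrmc1, a heme-binding membrane protein that associates with P450s, did not pass the test.

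In FDMn, 3 of the 5 were lower than in FD and none was higher, beside 7.9% lower and 7.22% higher of all tested genes. Cyb5a fell to 567, 619 and 596 TPM in FDMn, against 938, 862 and 845 TPM in FD, and Cyb5r3 fell to 238, 235 and 238 TPM in FDMn, against 333, 335 and 322 TPM in FD. Neither pair of groups overlapped (limma adjusted p = 4.50e-05 and 7.41e-05). Pgrmc1 fell to 491 ± 17.7 TPM in FDMn, against 587 ± 12.1 TPM in FD (limma adjusted p = 0.00310), and Por averaged 596 ± 66.6 TPM in FDMn and 582 ± 125 TPM in FD with no call. With insulin, where 4.35% of all tested genes were lower, Cyb5a and Cyb5r3 were also lower, at 695 ± 26.4 and 285 ± 16.5 TPM in FDI (limma adjusted p = 0.00146 and 0.0139 against FD). Against FDI, where 11.9% of all tested genes were lower, the same 3 were lower in FDMn, with adjusted p-values of 0.00315 for Cyb5r3, 0.0146 for Cyb5a and 0.0382 for Pgrmc1.

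**Figure D5:**
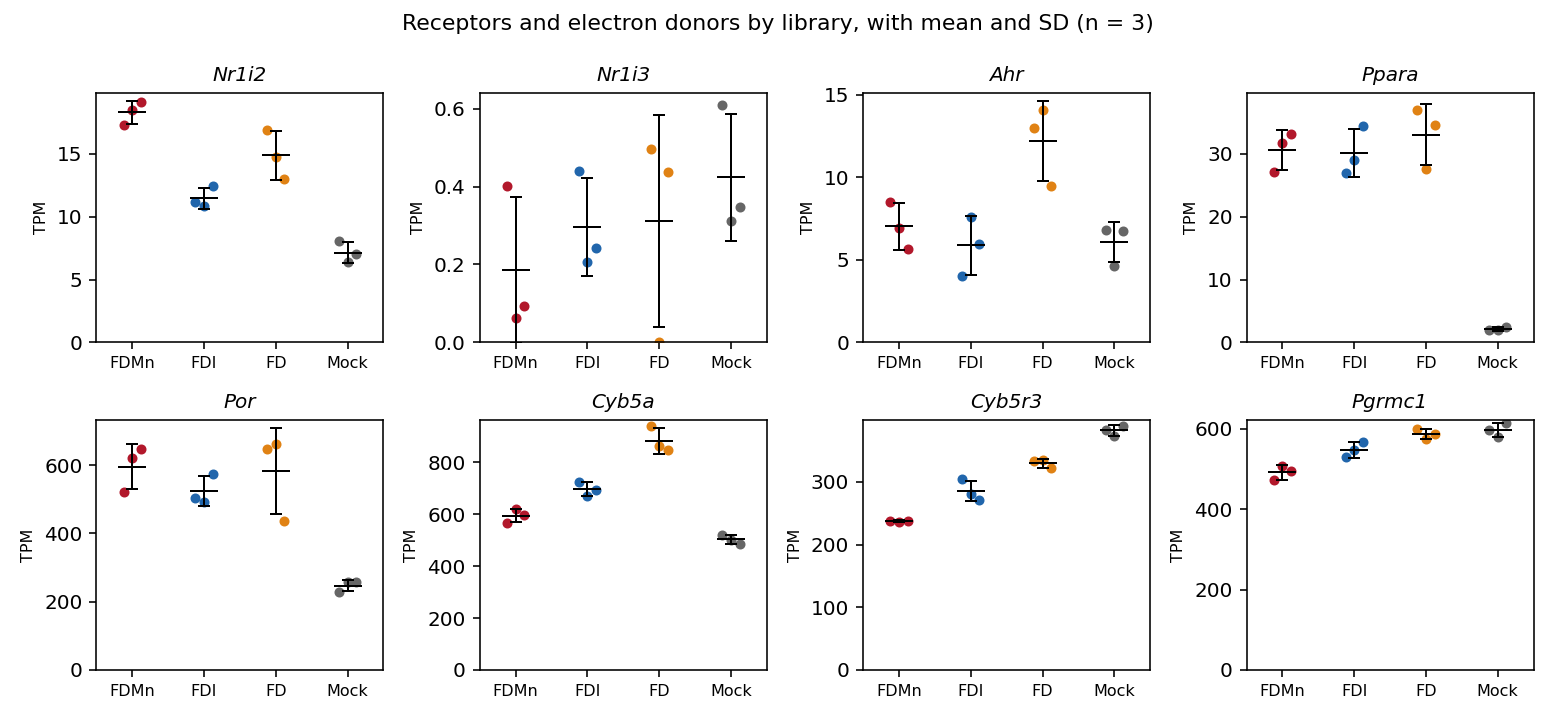
TPM of 4 receptors (top) and of Por, Cyb5a, Cyb5r3 and the P450-associated Pgrmc1 (bottom) by library. Groups are FDMn, FDI, FD and Mock, with mean and SD (n = 3). Ppara, Nr1i2 and Por are lowest in Mock, Ahr is highest in FD, Nr1i3 stays under 0.7 TPM in every library, and Cyb5r3 is lowest in FDMn.

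Receptors and other regulators of P450 genes made a list of 26, of which 24 were tested, and FD cells had 9 of them higher and 10 lower than Mock cells, against the same background of 11.2% and 29.9%. Ppara had 37.0, 27.6 and 34.6 TPM in FD, against 1.93, 1.96 and 2.51 TPM in Mock (log2 change 3.44 ± 0.13, limma adjusted p = 1.18e-09). Its target members Cyp4a10 and Cyp4a14 missed the threshold as given above, and the part of Ppara in their values was not tested. Hnf4a, the hepatocyte master factor, had 205 ± 2.99 TPM in FD and 52.1 ± 1.25 TPM in Mock (limma adjusted p = 1.02e-11). Nr1i2, the receptor that drives Cyp3a11, had 16.9, 14.7 and 13.0 TPM in FD, against 8.05, 6.37 and 7.02 TPM in Mock (limma adjusted p = 2.29e-05).

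Ahr had 13.0, 14.1 and 9.45 TPM in FD, against 6.79, 4.66 and 6.74 TPM in Mock (limma adjusted p = 0.00564), and Tiparp, a target and repressor of Ahr, had 21.0 ± 0.947 TPM in FD and 3.65 ± 0.267 TPM in Mock (limma adjusted p = 8.55e-09). The coactivator Ppargc1a had 20.2 ± 3.10 TPM in FD and 0.792 ± 0.0435 TPM in Mock (limma adjusted p = 1.96e-09). Nr1i3, the receptor best known for inducing Cyp2b10, was at most 0.610 TPM in any of the 12 samples and was not tested. Rxra, the shared partner of these receptors, averaged 39.7 ± 6.29 TPM in FD and 31.1 ± 5.51 TPM in Mock and did not pass the test.

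With manganese, 1 of the 24 regulators was higher and 3 were lower than in FD, beside 7.22% and 7.9% of all tested genes. Cebpb, a C/EBP factor of the acute-phase and fasting programmes, rose to 178 ± 4.66 TPM in FDMn, against 134 ± 4.40 TPM in FD (limma adjusted p = 0.00259). In FDI it averaged 188 ± 20.1 TPM, with values above every FD sample and overlapping those of FDMn. Ahr fell to 8.50, 6.91 and 5.68 TPM in FDMn, against 13.0, 14.1 and 9.45 TPM in FD (limma adjusted p = 0.0449). Its target Cyp1a2 was lower in FDMn than in FD, and passed the test neither in FD against Mock nor in FDI against FD. The part of Ahr in the Cyp1a2 values was not tested. Hnf4a and the antioxidant factor Nfe2l2 had small falls, with log2 changes of -0.16 and -0.26 (limma adjusted p = 0.0326 and 0.00920). With insulin, 2 of the 24 were higher and 7 lower than in FD, beside 10.2% higher and 4.35% lower of all tested genes. Among the lower was Ahr, at 4.01, 7.62 and 5.98 TPM in FDI (limma adjusted p = 0.0115 against FD). Against FDI, 5 regulators were higher and 2 lower in FDMn, beside 5.68% higher and 11.9% lower of all tested genes. Among the higher was Nr1i2, at 18.3 ± 0.928 TPM in FDMn and 11.5 ± 0.840 TPM in FDI (limma adjusted p = 0.00201).

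P450 genes of families 5 and above, which mostly act on sterols, bile acids, vitamins and steroid hormones, had 18 symbols, of which 8 were tested. In FD against Mock, 2 were higher and 3 lower, beside 11.2% and 29.9% of all tested genes. In FDMn against FD none passed the limma test, beside 7.22% and 7.9%. At an unadjusted p under 0.05, 2 of the 8 were lower, beside 1689 higher and 1738 lower of all 11544 tested genes. In FDI against FD none was higher and 1 was lower, beside 10.2% and 4.35%. In FDMn against FDI none passed, beside 5.68% and 11.9%. At an unadjusted p under 0.05, 1 was higher and 1 lower, beside 1253 higher and 2344 lower of all 11544 tested genes. The steroid enzyme Cyp17a1 had 5.95, 2.77 and 3.40 TPM in FD, against 0, 0.492 and 0.213 TPM in Mock (limma adjusted p = 1.94e-05). The retinoic acid hydroxylase Cyp26a1 fell to 12.5 TPM in FD, against 26.2 TPM in Mock (limma adjusted p = 4.33e-05). Cyp7a1, the entry enzyme of bile acid synthesis, was listed at 0 or under 1.3 TPM in every sample and was not tested.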

How the data were processed

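The authors' deposited table gives 1 TPM value per gene symbol and sample for 12 samples, all of whose columns were used. Per the submitters' processing notes the tools named are kallisto 0.44.0 and DESeq2, with build GRCm38.p6; the sources used here give neither the step each served nor the transcript set. TPM values carry no read depth, so no count model was run. limma 3.58.1 (R 4.3.3) was fitted to log2(TPM + 1) with trend and 1 term per group over all 12 samples, on the 11544 of 36144 symbols with at least 1 TPM in at least 3 samples, and Benjamini-Hochberg adjusted over all of them (threshold 0.05). Fold changes are therefore on the log2(TPM + 1) scale, and those of low genes are understated; folds of means are of TPM. The fit was tested on simulated data. Alternatives were 2 pseudocounts, 2 filters, 2 scalings, a fit of only the groups compared, a replicate block and leaving out each of 12 samples.

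The members, lists and tests were chosen with earlier results of these data known; the sums over near-copies, the motifs and the printed promoters were chosen after the values were seen. Named members are the highest of each subfamily and, per comparison, the 8 of smallest adjusted p in each direction; other tested members are named by level and call. Positions and shared runs of 31 bases come from GENCODE M21, where all 75 members were found as protein-coding genes, and promoters from RefSeq, in which 62 of the 75 were found. Figures were drawn with matplotlib 3.10.9.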

Additional observations from a re-analysis of the deposited data

How the results depend on the processing

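Of the calls on members, those in FDMn against FDI held in all 179 recomputed cases, and those in FDMn against FD in 177 of 179. In FD against Mock, 246 of 296 held, the losses falling on Cyp2d10, Cyp2a5, Cyp2c39, Cyp4f16, Cyp3a13, Cyp2a12, Cyp2f2 and Cyp3a59, and in FDI against FD 33 of 40, all losses being Cyp3a11. No called change reversed. In FD against Mock the 11 higher members became 19 with median-of-ratios scaling and 6 when only the 2 groups compared were fitted, and the 4 lower members became 2 with either scaling and 2 with the 2 groups alone. Over all genes, median-of-ratios scaling gave 2059 higher and 1972 lower, and quantile normalization 2178 lower. In FDI against FD the 2 lower members became 1 with no filter, 1 with the 2 groups alone, 1 with the replicate block and 4 with quantile normalization, and the 2-group fit gave 681 higher and 304 lower genes of all. Quantile normalization gave 909 lower genes of all in FDMn against FDI.

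Leaving out 1 library at a time, higher and lower members ranged from 7 to 11 and 2 to 4 in FD against Mock (lowest without Mock replicate 2 or FD replicate 3, and without Mock replicate 1 or FD replicate 1), from 2 to 4 and 6 to 9 in FDMn against FD, from 1 to 2 lower in FDI against FD (1 without FDI replicate 1 or FDI replicate 2) and from 3 to 4 and 6 to 6 in FDMn against FDI. The counts over all genes ranged from 478 to 1005 higher and 540 to 1020 lower in FDMn against FD, from 733 to 1438 and 321 to 683 in FDI against FD and from 404 to 715 higher in FDMn against FDI. The 2-group fit and each left-out library use fewer samples, and the causes of the other differences were not tested.

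Members that missed the threshold and lay near 0 changed sign without a call. With median-of-ratios and quantile scaling these were, in FD against Mock, Cyp1a2 (0.12 and 0.043), Cyp2j5 (0.15 and 0.099) and Cyp4f13 (0.15 and 0.12), and in FDMn against FDI Cyp2f2 (0.034 and 0.082). With quantile normalization in FDMn against FD they were Cyp2u1 (-0.017), Cyp3a11 (0.020) and Cyp4b1 (-0.056). Leaving out 1 library, the log2 changes spanned 0 in FD against Mock for Cyp1a2 (-0.10 to 0.016), Cyp2e1 (-0.036 to 0.067), Cyp2j5 (-0.038 to 0.021), Cyp4a10 (-0.053 to 0.16) and Cyp4f13 (-0.13 to 0.14), in FDMn against FD for Cyp2r1 (-0.027 to 0.28), Cyp2u1 (-0.029 to 0.21), Cyp3a11 (-0.096 to 0.00087), Cyp4b1 (-0.12 to 0.17) and Cyp4f13 (-0.17 to 0.095), in FDI against FD for Cyp2d10 (-0.12 to 0.017), Cyp2e1 (-0.083 to 0.020), Cyp2r1 (-0.25 to 0.065), Cyp4a10 (-0.060 to 0.039) and Cyp4f13 (-0.20 to 0.073), in FDMn against FDI for Cyp2c29 (-0.046 to 0.038), Cyp2f2 (-0.052 to 0.020) and Cyp4f13 (-0.039 to 0.081).

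Same-numbered samples of the groups compared showed no strong shared deviation (correlations of residuals from -0.0976 to 0.0684). With 3 samples per group this cannot settle whether the numbers pair the samples, which the labels do not say. The replicate block gave 10 higher and 4 lower members in FD against Mock, 3 and 6 in FDMn against FD, 0 and 1 in FDI against FD and 3 and 6 in FDMn against FDI. Changes of members under 1 TPM are limited by read depth, which these values do not hold.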
